A study of Mus musculus with 6 samples.

Results

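The genes described here encode 42 receptors for neuropeptides and peptide hormones that signal through G proteins. They were taken by symbol from the expression table of the substantia nigra (SN), chemokine receptors aside, and all 42 were among its 24054 genes. RNA from the SN of 3 MitoParks and 3 littermate controls was sequenced after selection of polyadenylated molecules. MitoParks carried the genotype Dat +/Cre : TFAM LoxP/LoxP, in which Cre, expressed from 1 copy of the dopamine transporter locus, deletes Tfam in the cells that use this transporter. Littermate controls carried TFAM +/LoxP : Dat +/+, so they lacked Cre and kept 1 LoxP allele of Tfam. The controls were described as C57BL/6, and the MitoParks, which the sample labels call PD, as transgenic animals from C57BL/6. All 6 mice were untreated and 16 to 17 weeks of age by the labels. The labels give the tissue as brain, and the study gives it as the SN.

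Peptide receptors sit in the cell membrane and bind peptides that neurons and other cells release, often far from the synapse. Receptors coupled to Gi/o lower cyclic AMP and open potassium channels, those coupled to Gq/11 release calcium from internal stores, and those coupled to Gs raise cyclic AMP. In the SN, neurotensin, opioid, tachykinin, cholecystokinin and orexin peptides are known to act on dopaminergic neurons, on GABA neurons and on the fibres that reach them. The grouping by main G protein used below is textbook background, and several of these receptors couple to more than 1 G protein.

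The expected counts summed to between 8140777 and 10528602 per mouse, and the members took between 8380 and 10790 of them, or 0.0926% to 0.116%. Tfam had 40.3 to 45.5 CPM (counts divided by library size) in littermate controls and 32.7 to 33.2 CPM in MitoParks, without overlap. All 12 dopaminergic neuron markers had log2 fold changes below 0. Past the cutoffs given below were 2 of them, Slc6a3 (-2.30) and Foxa1 (-0.84). Slc6a3 is the dopamine transporter gene, which carries Cre on 1 copy in MitoParks, and what this copy does to its transcript was not tested. The summed level of the 12 markers was 568, 670 and 1789 CPM in littermate controls 1, 2 and 3 and 363, 701 and 676 CPM in MitoParks 1, 2 and 3. Of these markers Pitx3 had 0 counts in MitoPark 1. Control 3 stood apart with the highest dopaminergic sum and the highest oligodendrocyte marker sum, at 15715 CPM against 5819 to 13363 CPM in the other mice. Control 1 and MitoPark 1 stood apart with the highest sums of 7 hypothalamus markers, at 1171 and 1704 CPM against 113 to 476 CPM. Most of these 2 sums came from the peptide gene Pmch, at 913 and 1403 CPM. The transcription factor genes Foxb1 and Sim1 did not follow this order, as given below. MitoPark 3 had 34.6 CPM of serotonin neuron markers against 0.977 CPM or less elsewhere. Y-linked transcripts were found in control 1 and MitoPark 2, so each group had 1 such mouse. In bulk tissue, fewer cells of a type and less RNA per cell cannot be told apart.

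Most of the receptors were detected. A gene was counted as detected in a mouse above 3 counts, which corresponded to between 0.285 and 0.366 CPM. By this measure 38 of the 42 members were detected in all 6 mice, and none was missing from more than 1 mouse. The 4 that missed 1 mouse were Oprm1, the mu opioid receptor, in MitoPark 3, Galr2, a galanin receptor, in MitoPark 2, and Grpr, the gastrin-releasing peptide receptor, and Npffr1, a receptor of RFamide peptides, both in control 3. The filter, a mean above 1 CPM in at least 1 group, was passed by 40 members. Galr2 and the bradykinin receptor Bdkrb2 did not pass it and were not tested. Bdkrb2 had 0.557, 0.950 and 0.391 CPM in littermate controls 1 to 3 and 0.853, 1.21 and 0.794 CPM in MitoParks 1 to 3, and Galr2 had between 0.3033 and 0.9752 CPM.

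To compare receptors with each other, CPM was divided by the length of the longest GENCODE M21 transcript of the gene. On this scale the member with the highest mean was Adcyap1r1, the PAC1 receptor of the peptide PACAP, at 55.5 ± 6.63 CPM per kb (SD, n = 6). Ntsr2, the low-affinity neurotensin receptor, which is known as an astrocyte receptor, followed at 49.9 ± 5.54 CPM per kb (SD, n = 6). Oprl1, the nociceptin receptor, had 33.9 ± 5.70 CPM per kb (SD, n = 6). These 3 genes held 50.6% of the summed level of all members, and the 10 highest held 77.4%. The next 7 were Ednrb, the endothelin B receptor, at 24.0 CPM per kb, Sstr1, a somatostatin receptor, at 16.9, Oprk1, the kappa opioid receptor, at 7.67, Tacr3, the neurokinin B receptor, at 7.56, Ntsr1, the high-affinity neurotensin receptor, at 6.53, Npy1r at 5.96 and Npy2r at 5.21, both receptors of neuropeptide Y. Adjacent members of this order often had overlapping ranges, as Oprl1 and Ednrb, Oprk1 and Tacr3, Ntsr1 and Npy1r, and Npy1r and Npy2r did. Adcyap1r1 and Ntsr2 overlapped too. Ntsr2 was the higher of them in control 3 (53.0 against 48.2 CPM per kb) and in MitoPark 3 (54.7 against 52.8 CPM per kb). The lowest was Bdkrb2 at 0.209 CPM per kb, below Vipr1, a VIP receptor, at 0.293.

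**Figure D1:**
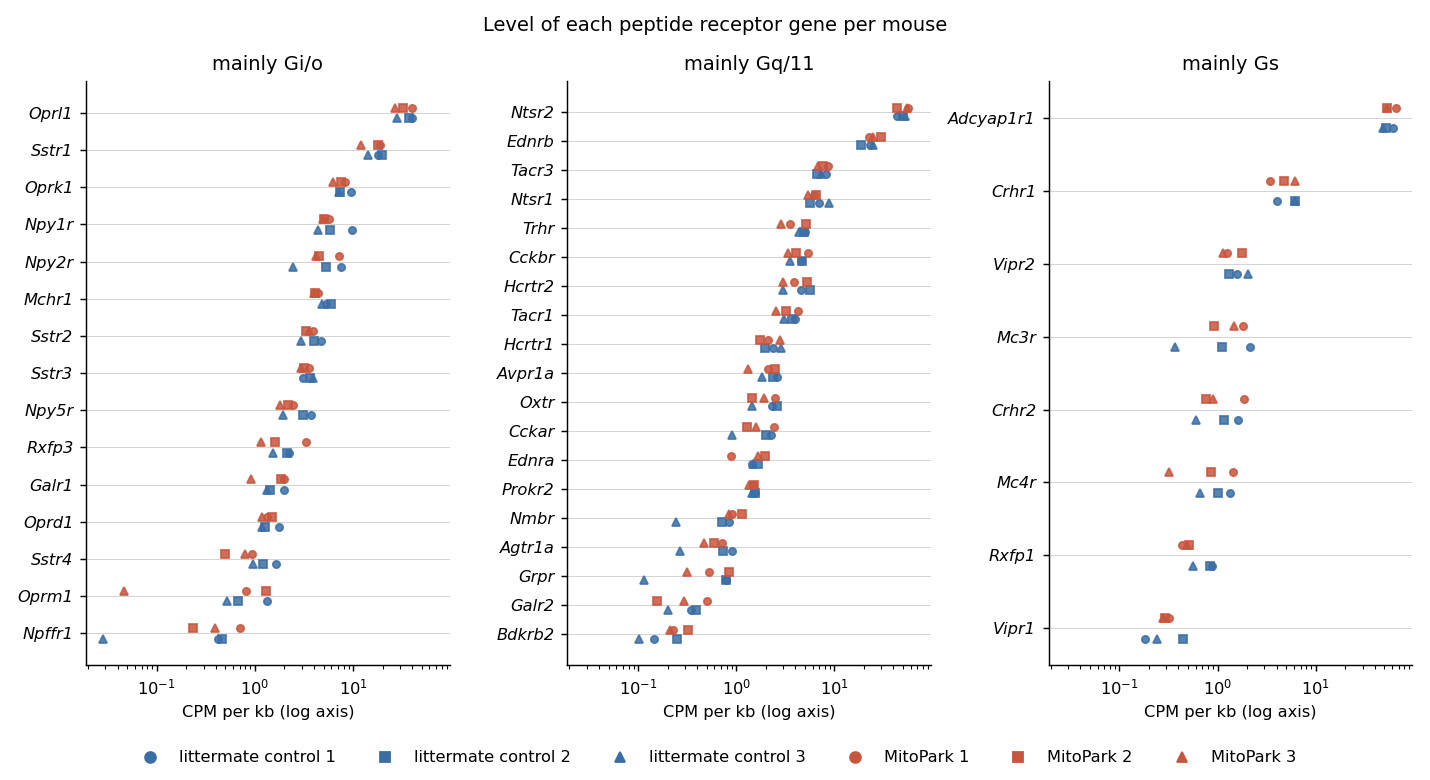
Level of the 42 receptor genes in each mouse, as CPM per kb of transcript on a log axis, in 3 panels by main G protein; symbols stand for single mice, blue for littermate controls and red for MitoParks. Adcyap1r1, Ntsr2 and Oprl1 lie highest, Bdkrb2 and Vipr1 lowest, and Oprm1 in MitoPark 3 and Npffr1 in littermate control 3 lie far below the other mice.

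Within receptor families the order of subtypes was mostly the same in every mouse. Adcyap1r1 had 36.5 times the level per kb of Vipr2, and Vipr2 had 5.19 times that of Vipr1, in 6 of 6 mice and without overlap. Ednrb exceeded Ednra, the endothelin A receptor of smooth muscle, by 15.9 times, and Ntsr2 exceeded Ntsr1 by 7.65 times, again in 6 of 6 mice. Among opioid receptors the order was Oprl1, Oprk1, Oprd1 (delta) and Oprm1, with ratios of 4.42, 5.60 and 1.76 between neighbours, and the ranges of Oprd1 and Oprm1 overlapped. Sstr1 had 4.52 times the level per kb of Sstr2 and Sstr3 had 3.38 times that of Sstr4, both in 6 of 6 mice. Other orders held in all 6 mice without overlap: Crhr1 over Crhr2, the receptors of corticotropin-releasing hormone and urocortins, by 4.45 times, Rxfp3 over Rxfp1, the relaxin-family receptors, by 3.24, Cckbr over Cckar, the cholecystokinin receptors, by 2.45, Tacr3 over Tacr1, the substance P receptor, by 2.19, and Hcrtr2 over Hcrtr1, the orexin receptors, by 1.82. Some neighbours were not separated. Avpr1a, the vasopressin V1a receptor, was above Oxtr, the oxytocin receptor, in 3 of 6 mice, and Sstr2 over Sstr3, Npy1r over Npy2r, Mc3r over Mc4r (melanocortin receptors) and Nmbr over Grpr (bombesin-like peptide receptors) held in 5 of 6, with overlapping ranges.

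The comparison of MitoParks with littermate controls addressed which genes change in the SN when Tfam is lost from dopaminergic neurons. Of the 40 receptor genes tested, 32 had a log2 fold change within 0.25 of 0, as did 12453 of all 14568 genes tested. The range was -0.77 to 0.71, and the median was -0.09 against -0.0047 over all genes. MitoParks were lower for 25 and higher for 15, so 62.5% were lower, against 51.4% of all genes. A gene was called at an unadjusted p below 0.05 with a fold change above 1.5. The study's methods state these cutoffs without saying whether p is adjusted, and another paragraph of them names an adjusted p below 0.05. By edgeR's quasi-likelihood test 1 of 40 members was called, Rxfp1, which was lower. This was 2.50% of the members, beside 0.577% of all genes tested called in either direction and 0.199% called lower. The groups did not overlap for 4 members, or 10%, beside 4.71% of all genes. Rxfp1, Mchr1 and Sstr4 were lower in each MitoPark than in each control, and Nmbr was higher in each, though Sstr4 overlapped when scaled by total counts alone.

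In the edgeR fit without a block, no gene tested had an adjusted p below 0.05 (smallest adjusted p = 0.999, Benjamini-Hochberg), and 161 had an unadjusted p below 0.05. DESeq2 also gave 0 genes at an adjusted p below 0.05 and 96 at an unadjusted p below 0.05, of which 0 were members. With the replicate number as a block, edgeR gave 1 gene at an adjusted p below 0.05 and 323 at an unadjusted p below 0.05. Of the members, 0 had an adjusted p below 0.05 in that fit. The members had a median standard error of 0.26 on the log2 scale, against 0.16 over all genes. The values of p measure the spread between these 6 mice, and 0.1 is the smallest p that an exact permutation test can give here. Leaving out single mice gave between 16 and 34 members that were lower, beside 48.1% to 51.5% of all genes. The members' median log2 fold change was then between -0.21 and 0.05. The median was above 0 without control 1 (0.03) and without MitoPark 3 (0.05).

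**Figure D2:**
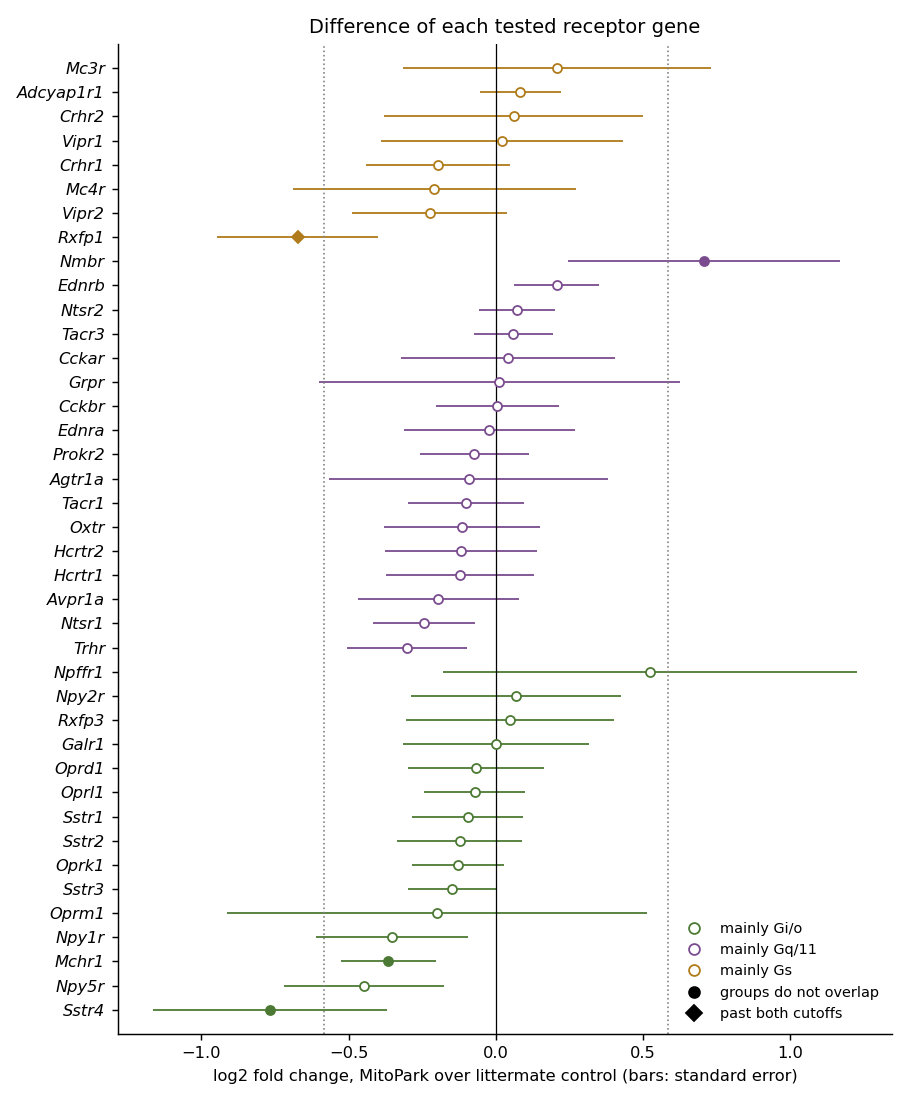
Log2 fold change of MitoParks over littermate controls for the 40 tested receptor genes, with bars of 1 standard error, coloured by main G protein; dotted lines mark a 1.5-fold change, filled symbols groups that do not overlap, and the diamond the gene past both cutoffs. Most genes lie within 0.25 of 0, Sstr4 (-0.77) and Rxfp1 (-0.67) lie lowest and Nmbr (0.71) highest.

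Rxfp1 encodes the receptor for relaxin, a Gs-coupled receptor with a large extracellular domain. It lies on the minus strand at chr3:79641611-79737880 (GRCm38, GENCODE M21), and its longest transcript has 18 exons. Rxfp1 had 4.68, 4.56 and 3.03 CPM in littermate controls 1, 2 and 3, and 2.32, 2.73 and 2.61 CPM in MitoParks 1, 2 and 3. These came from 42, 48 and 31 counts and from 19, 27 and 23 counts. All 3 MitoParks were below all 3 controls, and control 3 lay closest to them. On the log2 scale the MitoParks differed by -0.67 (standard error 0.27, 1.59-fold lower), with a 95% interval from -1.29 to -0.06. In edgeR's quasi-likelihood test p was 0.0354 unadjusted and 0.999 adjusted. The direction was the same in all 12 alternative analyses, from -0.85 to -0.50. As the groups did not overlap, leaving out mice could hardly reverse it, so this sameness adds no support. The call was kept in 5 of the 12. It was lost with DESeq2 (unadjusted p = 0.0821), without control 1 (-0.56), without control 2 (-0.58), and without MitoPark 1 (-0.60), 2 (-0.72) or 3 (-0.69). It was also lost without control 1 and MitoPark 1 together (-0.50, unadjusted p = 0.22 in edgeR). In control 3, where the dopaminergic sum was highest, Rxfp1 was the lowest of the controls.

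The genes of the peptides that bind Rxfp1 were rare in the tissue. Rln1, which encodes relaxin, had between 0.0977 and 1.34 CPM and at most 14 counts in a mouse. Rln3, which encodes relaxin-3 and is known from neurons of the brainstem, had between 0.0950 and 0.794 CPM and at most 8 counts. Neither passed the filter. Rxfp3, the Gi-coupled receptor of relaxin-3, had 9.58, 9.02 and 6.55 CPM in littermate controls and 14.3, 6.87 and 4.99 CPM in MitoParks, so the highest and the lowest mouse were both MitoParks (log2 fold change 0.05, standard error 0.35).

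Mchr1 encodes the receptor of melanin-concentrating hormone, a peptide made by neurons of the lateral hypothalamus. Mchr1 had 11.6, 13.0 and 10.5 CPM in littermate controls 1, 2 and 3, and 9.51, 8.998 and 8.73 CPM in MitoParks 1, 2 and 3. The 3 MitoParks lay within a narrow range below every control. On the log2 scale the difference was -0.36 (standard error 0.16). In edgeR's test p was 0.05004 unadjusted and 0.999 adjusted, so Mchr1 missed both cutoffs. Leaving out single mice gave -0.44 to -0.28. Its ligand gene Pmch had 913, 159.7 and 52.8 CPM in controls 1 to 3 and 1403, 382 and 241 CPM in MitoParks 1 to 3. Of the mice with the most Pmch, control 1 was the middle control for Mchr1 and MitoPark 1 the highest MitoPark.

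Sstr4 encodes a Gi-coupled somatostatin receptor and had the lowest log2 fold change of the members. Sstr4 had 2.34, 1.71 and 1.37 CPM in littermate controls 1, 2 and 3, and 1.34, 0.708 and 1.13 CPM in MitoParks 1, 2 and 3. The counts were low, 14 to 21 in controls and 7 to 11 in MitoParks, and control 3 and MitoPark 1 nearly met, and overlapped by total counts. On the log2 scale the difference was -0.77 (standard error 0.40), and in edgeR's test p was 0.0838 unadjusted and 0.999 adjusted. Leaving out single mice gave -0.96 to -0.53.

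Nmbr encodes the Gq-coupled receptor of neuromedin B and was the member with the highest log2 fold change. Nmbr had 1.34, 1.14 and 0.391 CPM in littermate controls 1, 2 and 3, and 1.46, 1.82 and 1.36 CPM in MitoParks 1, 2 and 3. Control 3 had 4 counts where the other mice had 12 to 18, and control 1 nearly met the MitoParks. On the log2 scale the difference was 0.71 (standard error 0.46), and 0.33 without control 3. In edgeR's test p was 0.16 unadjusted and 0.999 adjusted. An exon of Nmbr overlaps the gene B230364G03Rik on the opposite strand. The libraries marked strand, but whether the counting used it is not given in the sources used here, so reads of the 2 genes may not have been told apart.

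**Figure D3:**
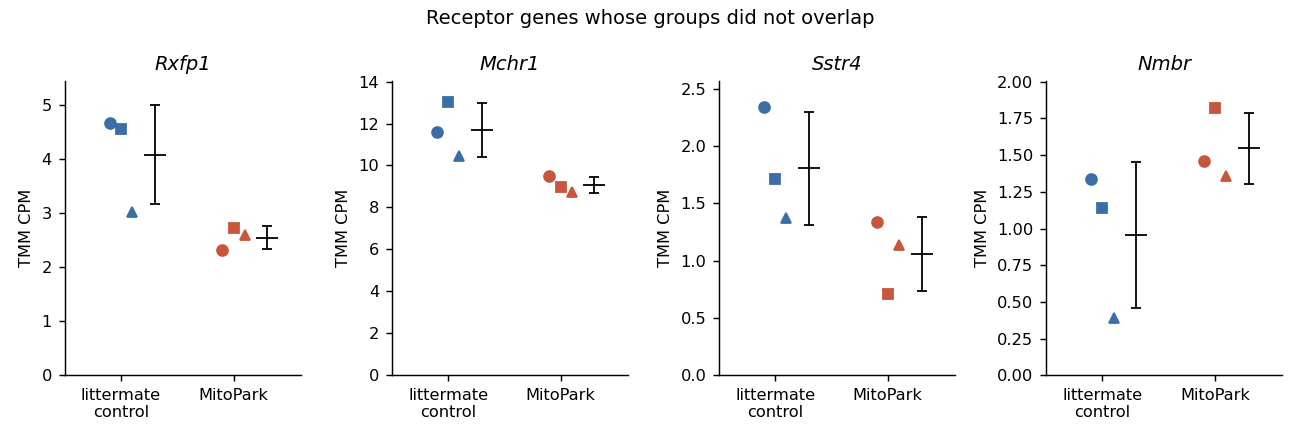
TMM-normalized CPM of Rxfp1, Mchr1, Sstr4 and Nmbr in each mouse, with circles, squares and triangles for replicates 1, 2 and 3 and, beside them, the mean and SD of each group (n = 3); each vertical axis starts at 0. Rxfp1, Mchr1 and Sstr4 are lower in every MitoPark, and Nmbr is higher, with littermate control 3 far below the others at 0.391 CPM.

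The start-site windows of these genes are shown because they are the members whose groups did not overlap. They come from RefSeq (GRCm38.p6) and run from 250 bases before to 50 after the start, where 34 of the 42 members had an entry. Rxfp1 had none. The windows are Sstr4 at chr2:148395127-148395426, Mchr1 at chr15:81235249-81235548 and Nmbr at chr10:14759697-14759996, all on the plus strand and written 5′ to 3′, with capitals for matches to any of 4 motifs searched on both strands.
Sstr4: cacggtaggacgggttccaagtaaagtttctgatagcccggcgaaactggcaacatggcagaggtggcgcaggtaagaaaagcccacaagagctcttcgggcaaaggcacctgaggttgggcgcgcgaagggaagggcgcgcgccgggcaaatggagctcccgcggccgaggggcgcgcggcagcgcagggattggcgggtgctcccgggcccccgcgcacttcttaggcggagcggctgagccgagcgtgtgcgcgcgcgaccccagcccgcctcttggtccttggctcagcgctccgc
Mchr1: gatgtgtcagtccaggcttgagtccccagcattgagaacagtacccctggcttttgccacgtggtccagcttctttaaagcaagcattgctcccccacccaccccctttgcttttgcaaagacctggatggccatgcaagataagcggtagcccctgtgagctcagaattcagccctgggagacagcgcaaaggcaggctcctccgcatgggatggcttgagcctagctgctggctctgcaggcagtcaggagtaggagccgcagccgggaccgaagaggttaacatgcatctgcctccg
Nmbr: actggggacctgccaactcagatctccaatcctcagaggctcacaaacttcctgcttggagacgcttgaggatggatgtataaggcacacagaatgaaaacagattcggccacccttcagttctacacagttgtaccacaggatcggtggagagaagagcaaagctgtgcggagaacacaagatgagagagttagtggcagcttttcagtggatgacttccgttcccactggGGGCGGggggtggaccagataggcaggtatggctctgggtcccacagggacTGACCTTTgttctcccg
The first motif searched was the GC box, spelled GGGCGG, which binds Sp-family factors. The second was the box of core promoters spelled TATAAA. The third was the core of the cyclic AMP response element, spelled TGACG, which binds CREB. The fourth was the NBRE, spelled AAAGGTCA, which binds single NR4A nuclear receptors. The Nmbr window held 1 GC box and, on the other strand, 1 NBRE, which do not overlap. The Sstr4 and Mchr1 windows held none of the 4, which says only that these letters are not in those windows. Among 32851 RefSeq windows of this length, 35.7% held a GC box, 13.6% the core promoter box, 20.8% the cyclic AMP response element core and 1.51% an NBRE. Among the 34 members with an entry, 12, 4, 11 and 1 held them in any window of the gene, while the shares above count single windows. The windows were 68.7% G and C for Sstr4, 58.0% for Mchr1 and 53.7% for Nmbr, against a median of 52.7%. These matches describe the letters and were not linked to the levels.

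The Gi/o-coupled receptors numbered 15, all tested, with a median log2 fold change of -0.12 and 11 lower against 4 higher. Apart from Sstr4 and Mchr1 none lacked overlap between the groups. Sstr1 had 36.5, 40.1 and 28.7 CPM in littermate controls and 38.0, 36.1 and 24.5 CPM in MitoParks, and replicate 3 was the lowest of both groups. Its log2 fold change was -0.10, with a 95% interval from -0.52 to 0.33. Sstr2 and Sstr3, which complete the somatostatin receptors listed, had log2 fold changes of -0.12 and -0.15.

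All 3 receptors of neuropeptide Y varied widely among controls. Npy1r had 29.5, 17.6 and 13.2 CPM in littermate controls and 17.1, 15.2 and 14.9 CPM in MitoParks. Its highest mouse was control 1 and its lowest control 3, so the MitoParks lay inside the range of the controls, and the log2 fold change of -0.35 (standard error 0.26) became 0.03 without control 1. Npy2r, known as a presynaptic receptor, had 25.4, 17.7 and 8.31 CPM in littermate controls and 24.4, 15.3 and 14.2 CPM in MitoParks, a log2 fold change of 0.07 (standard error 0.36). Here the highest mice of both groups were replicate 1. Npy5r ran from 4.50 to 8.58 CPM in controls and from 4.20 to 5.61 CPM in MitoParks, a log2 fold change of -0.45 (standard error 0.27, unadjusted p = 0.134 in edgeR's test), and of the alternatives run it passed both cutoffs only without control 3.

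The groups overlapped for all 4 opioid receptors. Oprl1 had 122, 114 and 86.4 CPM in littermate controls and 124, 99.9 and 83.8 CPM in MitoParks, with replicate 1 highest and replicate 3 lowest in both groups. The log2 fold change was -0.07 (95% interval -0.46 to 0.31). Oprk1, the receptor of dynorphin, had 44.7, 34.3 and 33.4 CPM in littermate controls and 38.5, 34.9 and 29.3 CPM in MitoParks, with overlap and a log2 fold change of -0.13 (standard error 0.16). Oprd1 differed by -0.07 on the log2 scale. Oprm1 ranged from 0.113 CPM (1 count) in MitoPark 3 to 3.23 CPM in control 1, which left a standard error of 0.71 around a log2 fold change of -0.20. An exon of Oprm1 overlaps Ipcef1 on the opposite strand. Of the other Gi/o-coupled receptors, Galr1 and Rxfp3 had log2 fold changes of 0.00 and 0.05, and Npffr1 had 0.52 with a standard error of 0.70.

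The Gq/11-coupled receptors numbered 19, of which 17 were tested, with 10 lower, 7 higher and a median log2 fold change of -0.07. Ntsr2 had 119.5, 137 and 146 CPM in littermate controls and 154, 119 and 151 CPM in MitoParks, an overlap of nearly the whole range. Its log2 fold change was 0.07 (95% interval -0.22 to 0.36), and the astrocyte marker sum ran from 2460 to 3267 CPM over the 6 mice. Ntsr1, which is known on midbrain dopaminergic neurons, had 27.1, 21.8 and 34.3 CPM in littermate controls and 24.0, 25.4 and 20.9 CPM in MitoParks. Its highest mouse was control 3, the mouse with the highest dopaminergic sum. The log2 fold change was -0.24 (standard error 0.17, unadjusted p = 0.192 in edgeR's test), and without control 3 it was -0.06. Without any other single mouse it ran from -0.39 (without control 2, unadjusted p = 0.0456 in edgeR's test) to -0.17 (without MitoPark 3).

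Ednrb, known in astrocytes and endothelium, had 94.7, 77.5 and 103 CPM in littermate controls and 92.4, 124 and 101 CPM in MitoParks. Control 2 was lowest and MitoPark 2 highest, and the groups overlapped (log2 fold change 0.21, 95% interval -0.12 to 0.53). Ednra, at -0.02, overlaps 4933431K23Rik in an exon on the opposite strand. Tacr3 had 30.6, 25.2 and 27.8 CPM in littermate controls and 32.3, 29.1 and 25.6 CPM in MitoParks, a log2 fold change of 0.06 (standard error 0.13), and Tacr1 was at -0.10. Both cholecystokinin receptors were near 0, Cckar at 0.04 (standard error 0.36) and Cckbr at 0.01 (standard error 0.21).

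Trhr, the receptor of thyrotropin-releasing hormone, had the lowest log2 fold change of the Gq/11-coupled receptors, -0.30 (standard error 0.21, unadjusted p = 0.175 in edgeR's test). Its 3 controls lay between 15.7 and 18.2 CPM, and MitoPark 2, at 18.5 CPM, was above them while MitoParks 1 and 3 were below. The orexin receptors Hcrtr1 and Hcrtr2 were both at -0.12, Avpr1a was at -0.20 and Oxtr at -0.11. Prokr2, the prokineticin receptor, had the smallest relative spread among controls, with 6.90, 7.03 and 6.45 CPM, and it had 6.58, 6.77 and 6.01 CPM in MitoParks (log2 fold change -0.07, 95% interval -0.49 to 0.34). Agtr1a, the angiotensin II receptor, at -0.09, and Grpr, at 0.01, had standard errors of 0.47 and 0.61.

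The 8 Gs-coupled receptors were split, 4 higher and 4 lower, with a median log2 fold change of -0.09. Adcyap1r1 had 376, 317 and 294 CPM in littermate controls and 401, 322 and 323 CPM in MitoParks, and replicate 1 was the highest mouse of both groups. Its log2 fold change of 0.08 had a 95% interval from -0.23 to 0.39. Vipr1 and Vipr2, the VIP receptors, had log2 fold changes of 0.02 (standard error 0.41) and -0.23 (standard error 0.26). Crhr1, at -0.20, was highest in controls 2 and 3 and in MitoPark 3, with 15.2 CPM in each. Crhr2, Mc3r and Mc4r had log2 fold changes of 0.06, 0.21 and -0.21, with standard errors between 0.44 and 0.52.

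The mice of a group differed from each other in an order that many members shared. Control 3 was the lowest of the controls for 30 of 40 members (75.0%), beside 36.1% of all genes tested, and control 1 was the highest for 24 (60.0%), beside 35.4%. Among MitoParks, MitoPark 1 was the highest for 25 (62.5%, beside 33.2%) and MitoPark 3 the lowest for 26 (65.0%, beside 32.8%). For 12 members (30.0%, beside 12.2% of all genes) control 1 and MitoPark 1 were the 2 highest of the 6 mice. These were Npy2r, Oprk1, Oprl1, Galr1, Tacr1, Tacr3, Cckar, Mc3r, Mc4r, Crhr2, Adcyap1r1 and Rxfp3. They are named after their values were seen.

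The spread was wide for some of them, among them the melanocortin receptors, which are known from hypothalamic feeding circuits. Mc3r had 5.68, 2.94 and 0.977 CPM in littermate controls and 4.75, 2.43 and 3.85 CPM in MitoParks, a ratio of 5.81 between controls 1 and 3. Npy2r, Crhr2, Cckar and Mc4r had ratios of 3.06, 2.66, 2.47 and 2.04 between these controls. The other way, 9 members were higher in control 3 than in control 1: Crhr1, Vipr1, Vipr2, Ntsr1, Ntsr2, Sstr3, Hcrtr1, Ednra and Ednrb.

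Peptide genes of the hypothalamus moved with these mice. Pmch is given above. Hcrt, which encodes the orexins, had 136, 1.71 and 1.66 CPM in littermate controls and 204, 19.5 and 3.74 CPM in MitoParks. Pomc, the precursor of melanocortins and beta-endorphin, had 65.0, 12.3 and 3.13 CPM in littermate controls and 50.7, 10.01 and 14.5 CPM in MitoParks. Replicate 1 had the most of each in both groups. Of the 7 hypothalamus markers, none was at or below 3 counts in every mouse, and 2 transcription factor genes did not follow this order, with Foxb1 at 24.7 and 16.8 CPM in control 1 and MitoPark 1 against 28.1 to 43.5 CPM elsewhere, and Sim1 between 13.0 and 20.1 CPM over all mice. Other marker sums also set control 1 and MitoPark 1 apart. The 3 GABA neuron markers summed to 1050 and 1106 CPM in them against 693 to 932 CPM elsewhere. The 3 oligodendrocyte markers summed to 5819 and 8041 CPM in them against 8286 to 15715 CPM elsewhere. The 5 astrocyte markers did not, at 2518 and 2522 CPM against 2460 to 3267 CPM. Whether any of these marker differences had a part in the levels of the receptors was not tested. Without control 1 and MitoPark 1, an analysis chosen after these values were seen, 28 of 41 tested members were lower, with a median log2 fold change of -0.07, and 0 were called by edgeR, with 0 at an unadjusted p below 0.05, beside 0.794% of all genes called.

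**Figure D4:**
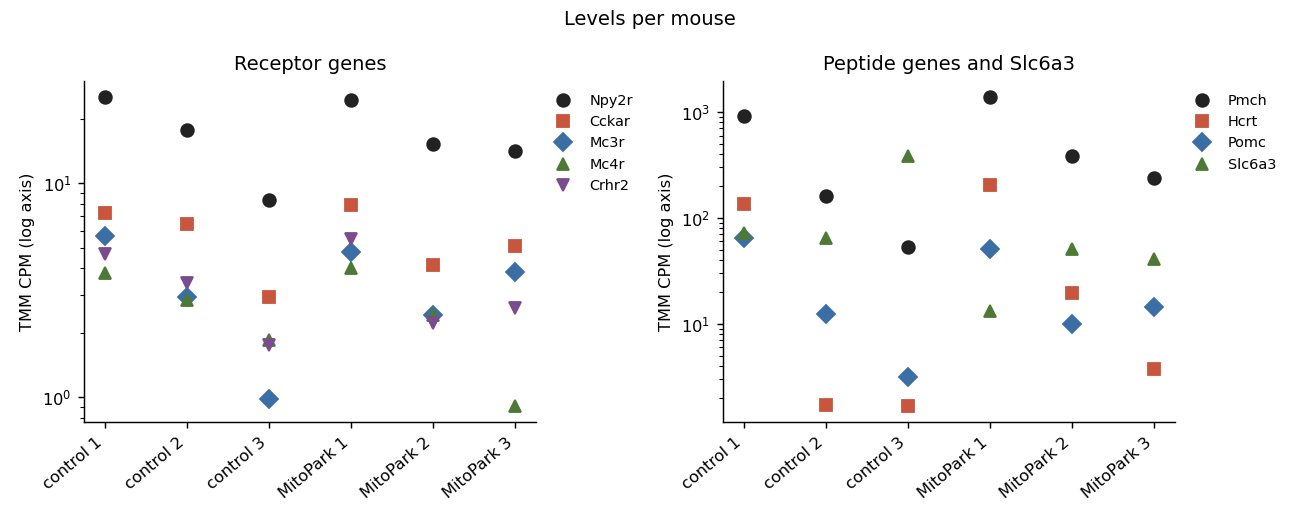
TMM-normalized CPM per mouse on log axes, for 5 receptor genes that were highest in littermate control 1 and MitoPark 1 and at least 2 times higher in control 1 than in control 3 (left), and for the peptide genes Pmch, Hcrt and Pomc with the dopamine transporter gene Slc6a3 (right). Control 3 is the lowest mouse for Pmch, Hcrt, Pomc and the receptors except Mc4r, which is lowest in MitoPark 3. Since the receptors were chosen for being lower in control 3 than in control 1, their low level there is no separate result. Slc6a3 reaches 383 CPM in control 3 against 13.3 to 72.6 CPM in the other mice.

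The list of genes that encode the members' peptides held 37 genes, of which 26 passed the filter. In MitoParks 18 were higher and 8 lower, with a median log2 fold change of 0.20, against -0.0047 over all genes. The receptors' median was -0.09, but it was above 0 without control 1 (0.03) or without MitoPark 3 (0.05). None of the peptide genes was called by edgeR or DESeq2, beside 0.577% of all genes called by edgeR. An unadjusted p below 0.05 in edgeR's test was reached by 2, both lower, beside 161 of all 14568 genes. Cck, which encodes cholecystokinin and is made by many midbrain dopaminergic neurons, had 17.8, 27.1 and 28.6 CPM in littermate controls and 18.3, 16.2 and 19.5 CPM in MitoParks. Control 1 lay among the MitoParks, and the difference on the log2 scale was -0.45 (standard error 0.18, unadjusted p = 0.0368, adjusted p = 0.999 in edgeR's test). Adcyap1 encodes PACAP, the ligand of Adcyap1r1, the member with the highest mean. Adcyap1 had 124, 186 and 156 CPM in littermate controls and 99.5, 135 and 118 CPM in MitoParks. MitoPark 2 was above control 1, and the difference on the log2 scale was -0.40 (standard error 0.17, unadjusted p = 0.0382, adjusted p = 0.999 in edgeR's test).

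Several peptide genes were highest in replicate 1 of both groups, so their log2 fold changes had wide errors: Avp, which encodes vasopressin, at 1.55 (standard error 1.51), Oxt, oxytocin, at 1.13 (1.42), Pmch at 0.85 (0.92) and Hcrt at 0.71 (1.504). Without control 1, 7 ligand genes were called, beside 0.912% of all genes. In the remaining mice Avp, Hcrt, Pdyn and Pmch had higher means in MitoParks, and Cck, Ucn and Vip lower means. Ucn had at most 16 counts in a mouse. More evenly spread were Penk, the enkephalin precursor, at 0.22 (standard error 0.14), and Agt, the angiotensinogen gene of astrocytes, at 0.24 (standard error 0.13). Agt had 217 to 239 CPM in littermate controls and 223 to 306 CPM in MitoParks.

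Transcripts of the proteins that carry or end the receptor signal were compared in the same way. All 31 listed genes of G proteins, receptor kinases, arrestins, RGS proteins and receptor partners were tested, 11 were higher and 20 lower, and the median log2 fold change was -0.03, with 23 within 0.25 of 0. The values farthest from 0 were 0.60 for Grk4 (standard error 0.32), a receptor kinase gene with 216 CPM in MitoPark 3 and 77.6 to 92.0 CPM elsewhere, and -0.52 for Ramp3 (standard error 0.39), which encodes a partner of the calcitonin receptors. None was called by edgeR or DESeq2, and 0 had an unadjusted p below 0.05 in edgeR's test. The groups did not overlap for 3 of them (9.68%, beside 4.71% of all genes). Gnao1, the main Gi/o alpha subunit of brain, had 603, 590.0 and 644 CPM in littermate controls and 562, 577 and 588 CPM in MitoParks (log2 fold change -0.09, standard error 0.11). Gnal, the Gs-like subunit of striatal neurons, was at -0.16, and Adrbk2, which encodes a receptor kinase, was at 0.13.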

How the data were processed

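Polyadenylated RNA of the SN was measured in 3 MitoParks and 3 littermate controls, grouped by the sample labels. Reads were aligned by the authors with Bowtie2 2.1.0 to transcripts from UCSC, and they deposited expected counts per gene from RSEM 1.2.15, without normalization. The submitters' processing notes list hg38 although the samples are mouse, so the build is not settled, and coordinates here come from GENCODE M21 and RefSeq. A second methods paragraph names HISAT2 and RPKM, which the deposited table does not hold. The table calls the MitoPark columns Treat, with the labels' numbers 1 to 3, and 0 columns had no sample.

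The deposited expected counts were rounded before testing, since 11.9% to 14.1% of values per mouse were not whole. Genes with a mean above 1 CPM in at least 1 group were normalized by TMM and tested with edgeR 4.0.16 (quasi-likelihood, R 4.3.3), with Benjamini-Hochberg adjustment over 14568 genes. Standard errors are the log2 fold change divided by the square root of F. Single genes were also tested by exact two-sided permutation on log2(CPM + 0.1), which gave p = 0.1 for Rxfp1, Mchr1, Sstr4 and Nmbr. No 2 libraries of the same group agreed within sampling noise. Intervals cover the spread between mice, and the limit of 3 counts covers counting error only.

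Values per mouse are given for members that were called, had an unadjusted p below 0.05, changed over 1.5-fold or did not overlap, for the 10 highest per kb, and for a few added after their values were seen. The members and lists were chosen with earlier results of these data known. Alternatives were RLE and total count normalization, no filter, DESeq2 1.42.0, the replicate number as a block, each mouse left out, and control 1 with MitoPark 1 left out, added after seeing the data. The procedure was tested on simulated data. Figures used Python 3.11.15 and matplotlib 3.10.9.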

Additional observations from a re-analysis of the deposited data

How the results depend on the processing

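RLE and total count normalization kept the direction of the members' median log2 fold change, at -0.09 and -0.08, and the call of Rxfp1. By total counts 3 members did not overlap, since Sstr4 then overlapped. DESeq2 called 0 members, and 0 were called without control 1 and MitoPark 1 together, where the groups did not overlap for 7 members, beside 24.7% of all genes. With each mouse left out in turn, 0 to 2 members were called (Npy5r and Rxfp1 without control 3). Between 16 and 34 were lower, beside 48.1% to 51.5% of all genes. The groups did not overlap for 4 to 9, beside 9.03% to 21.3% of all genes. The members' median log2 fold change ran from -0.21 to 0.053. In these analyses 0 to 7 ligand genes, 0 to 1 other peptide receptors and 0 to 2 transducer genes were called. Leaving out the filter called 1 ligand gene (Ucn), 1 other receptor (Rxfp2) and 1 transducer gene (Grk4). Without control 1 and MitoPark 1, 5 ligand genes were called, beside 0.794% of all genes. Left-out mice reversed log2 fold changes of Sstr1 (-0.22 to 0.077), Npy1r (-0.58 to 0.032), Npy2r (-0.26 to 0.46), Oprk1 (-0.21 to 0.019), Oprl1 (-0.22 to 0.053), Tacr3 (-0.015 to 0.14) and Adcyap1r1 (-0.021 to 0.19), and Ntsr2 was at -0.061 without control 1 and MitoPark 1. The cause was not tested. Over all genes 84 were called, 176 without the filter, 126 with the block and 62 to 219 with a mouse left out.

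The labels give both groups the numbers 1 to 3, with no litter or batch behind them, so the numbers were not taken to pair the mice. The deviations from the group means correlated between same-numbered mice at 0.31, -0.07 and 0.24. With the replicate block 1 member (Rxfp1) and 3 ligand genes (Avp, Hcrt and Pmch) were called, beside 0.865% of all genes. In this fit 28 of the 40 tested members were lower, beside 51.0% of all genes. In these correlations controls 1 and 3 went best with the MitoPark of their own number, and control 2 did not. At 8140777 to 10528602 counts per mouse, the tested members Sstr4, Nmbr, Agtr1a, Grpr and Npffr1 had at most 21 counts in a mouse. Their standard errors were 0.40 to 0.70, so a 1.5-fold change in them was not detectable. Members with more counts also had large errors, such as Oprm1 (0.71) and Mc3r (0.52), and the median over members was 0.26. The limit was thus not confined to these genes.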

Other observations

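Peptide receptors outside the 42 members were mostly rare in the SN. Of 40 such genes that were listed, 16 passed the filter, 8 were higher and 8 lower in MitoParks, the median log2 fold change was -0.02, and edgeR and DESeq2 called none, with 0 at an unadjusted p below 0.05 in edgeR's test. The genes below are named after their values were seen. Calcr, the calcitonin and amylin receptor, had the most CPM of them, with 36.6, 23.1 and 6.45 CPM in littermate controls 1, 2 and 3 and 35.2, 20.9 and 18.1 CPM in MitoParks 1, 2 and 3. Its order among the mice was that of Npy2r, with replicate 1 highest in both groups and control 3 lowest. Brs3, an orphan receptor of the bombesin family, had 8.24, 4.18 and 0.782 CPM in littermate controls and 4.51, 4.75 and 2.49 CPM in MitoParks, so control 3 was again the lowest mouse. Nmur2, the neuromedin U receptor, had 4.34, 3.13 and 0.880 CPM in littermate controls and 4.51, 2.22 and 1.70 CPM in MitoParks, and control 3 was the lowest here too.

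Other receptors were even across mice. Pth1r, the parathyroid hormone receptor, lay between 8.80 and 10.01 CPM in all 6 mice (log2 fold change 0.01, standard error 0.16), and Calcrl, the CGRP and adrenomedullin receptor of vessels, between 11.9 and 16.4 CPM (log2 fold change -0.10, standard error 0.16). Kiss1r, the kisspeptin receptor, was the gene among the 16 tested whose groups did not overlap (6.25%, beside 4.71% of all genes). Kiss1r had 6.35, 6.36 and 6.45 CPM in littermate controls and 6.34, 4.85 and 3.29 CPM in MitoParks. MitoPark 1 reached almost the level of the controls. The log2 fold change of Kiss1r was -0.41 (standard error 0.26, unadjusted p = 0.146 in edgeR's test). It was called when MitoPark 1 was left out, beside 0.814% of all genes. Rxfp2, a relaxin-family receptor that did not pass the filter, did not overlap either, with 0.557, 0.285 and 0.195 CPM in littermate controls and 1.46, 0.809 and 0.680 CPM in MitoParks. These came from only 5, 3 and 2 counts and from 12, 8 and 6 counts, so controls 2 and 3 were not above the detection limit of 3 counts. Without the filter, 4.82% of all genes did not overlap.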
